A study of Mus musculus with 24 samples.

Results

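The 10 genes described here code for the inhibitors of cyclin-dependent kinases (CDKs) p21 (Cdkn1a), p27 (Cdkn1b), p16 (Cdkn2a, which also codes for p19ARF), p15 (Cdkn2b) and p18 (Cdkn2c), for the D cyclins (Ccnd1, Ccnd2 and Ccnd3), and for p53 (Trp53) with its ubiquitin ligase Mdm2. They were chosen by symbol from the 37310 genes measured. All 10 reached the minimum level for testing, as did 14095 genes in all.

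Expression was measured by RNA sequencing in primary stromal vascular fraction (SVF) cells, a mixture that includes preadipocytes, from 6-week-old C57BL/6 mice. Cells of inguinal white adipose tissue (WAT) or interscapular brown adipose tissue (BAT) were driven into adipogenesis with EGCG (epigallocatechin gallate, a tea catechin) or with DMSO, labelled control, and were collected on day 4 or day 8. The 8 groups of depot, day and treatment held 3 libraries each. The labels name no dose of EGCG. All groups received insulin, dexamethasone and 3-isobutyl-methylxanthine up to day 4, and the day 8 groups then received insulin and T3, so day and medium cannot be told apart. The labels do not say whether replicates came from separate mice or isolations, so the p-values measure only the spread between these libraries, which may be technical.

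A cell leaves G1 when D cyclins bind CDK4 or CDK6 and the retinoblastoma protein is phosphorylated. Proteins of the INK4 family (p15, p16 and p18) bind CDK4 and CDK6 and keep the D cyclins away, while p21 and p27, of the Cip/Kip family, bind the assembled cyclin and CDK complexes. The transcription factor p53 switches on Cdkn1a and Mdm2, Mdm2 marks p53 for degradation, and p19ARF blocks Mdm2. In adipogenesis, preadipocytes stimulated after confluence divide again before they withdraw from the cycle, and p18, p21 and p27 are known markers of that withdrawal.

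The p53 protein binds a pair of adjacent short elements. A search of 3000 bases on either side of the 5′ end of each gene, on both strands and with at most 2 mismatches to the p53 consensus, found such a pair at 2 of the 10 genes, against 835 of the 12562 protein-coding genes tested (6.65%) and 1329 of all 22367 protein-coding genes (5.94%). No mismatch was allowed at the core C and G of each element. These 2 matches are printed because Cdkn1a and Cdkn2b moved apart in most of the comparisons below, together with matches at Ccng1 and Zmat3, from a list of other p53 target genes. The matched pair is in capitals, and each line reads 5′ to 3′ on the strand of its gene in build NCBIM37 (mm9). The match at Cdkn1a lies at chr17:29227868-29227897 (plus strand), 51 bases before the gene, with 1 mismatch. The match at Cdkn2b lies at chr4:88954304-88954333 (minus strand), 2613 bases into the gene in its intron, also with 1 mismatch. The printed match at Ccng1, 1 of 2 there, lies at chr11:40568959-40568988 (minus strand), 170 bases before the gene, with 1 mismatch. The other, not printed, lies 356 bases into the gene in an intron, also with 1 mismatch. The match at Zmat3 lies at chr3:32263248-32263277 (minus strand), in an intron, with 0 mismatches. Other genes of that list had matches too, with 1 mismatch at Gdf15 and 2 at Bax, Eda2r, Fas, Perp and Plk2. The printed lines of Ccng1 and Zmat3 are therefore closer to the consensus than most of these.
Cdkn1a: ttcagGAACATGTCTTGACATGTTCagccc
Cdkn2b: tacttAGACATGTCCGGTCTTGCTCagcca
Ccng1: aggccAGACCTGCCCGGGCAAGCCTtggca
Zmat3: gtgagAAACAAGCCCAGGCATGTCTtggga
A match describes letters and is no evidence of binding, and the 8 genes without a match, Mdm2 and Trp53 among them, lack only these letters in this window.

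All 10 are protein-coding genes, and their positions are given in build NCBIM37 with the annotation GENCODE vM1. Trp53 lies at chr11:69393861-69405375 (plus strand) and Mdm2 at chr10:117125944-117147814 (minus strand). The Cip/Kip genes lie at chr17:29227924-29237667 (plus strand) for Cdkn1a and chr6:134870419-134875531 (plus strand) for Cdkn1b. The INK4 genes share chromosome 4, with Cdkn2a at chr4:88920377-88940557 (minus strand), Cdkn2b at chr4:88952198-88956941 (minus strand) and Cdkn2c at chr4:109333481-109339794 (minus strand). Ccnd1 lies at chr7:152115836-152125774 (minus strand), Ccnd2 at chr6:127075797-127101066 (minus strand) and Ccnd3 at chr17:47642000-47736632 (plus strand).

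Values are FPKM, read numbers scaled to gene length and to the reads on genes in the library, so levels can be set side by side between genes. Between 39452696 and 52893848 reads lay on genes in replicates 1 and 2, with at least 150 reads on each of the 10 genes in each of these 16 libraries. Replicate 3 was deposited in another table, held 16392420 to 41675643 reads and entered no main test. In the library of WAT day 8 with EGCG, replicate 3, 5 genes took 61.0% of all reads (3.65% to 10.5% elsewhere), and its FPKM of all other genes were therefore low as deposited. For that library a second value is given after division by its median-ratio factor of 0.413. The Zic1 mark of brown precursors had a mean FPKM of 3.81 to 10.8 in the BAT groups and 0.05 to 0.15 in the WAT groups, and Hoxc10 had 6.32 to 11.9 in WAT and 0.01 to 0.03 in BAT. Ucp1, the defining gene of brown adipocytes, reached 6.56 in BAT control cells on day 8 and at most 0.33 in any other group, and Tcf21, a white marker, stayed under 0.1 in all 8. Ebf2 and Lhx8, also listed as brown markers, overlapped between the depots. Ebf2 had means of 8.53 to 15.1 in WAT and 11.4 to 20.1 in BAT, and Lhx8 had 6.90 to 18.4 and 10.3 to 29.8.

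Cdkn1a and Mdm2 were the most abundant of the 10 transcripts, at mean FPKM of 209.5 and 97.7 over the 16 libraries of replicates 1 and 2, and Cdkn2a the least abundant at 13.8. Group means differed most for Ccnd1 (12.1-fold between the highest and the lowest group) and Cdkn1a (11.5-fold) and least for Cdkn1b (1.71-fold) and Ccnd3 (1.42-fold).

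**Figure D1:**
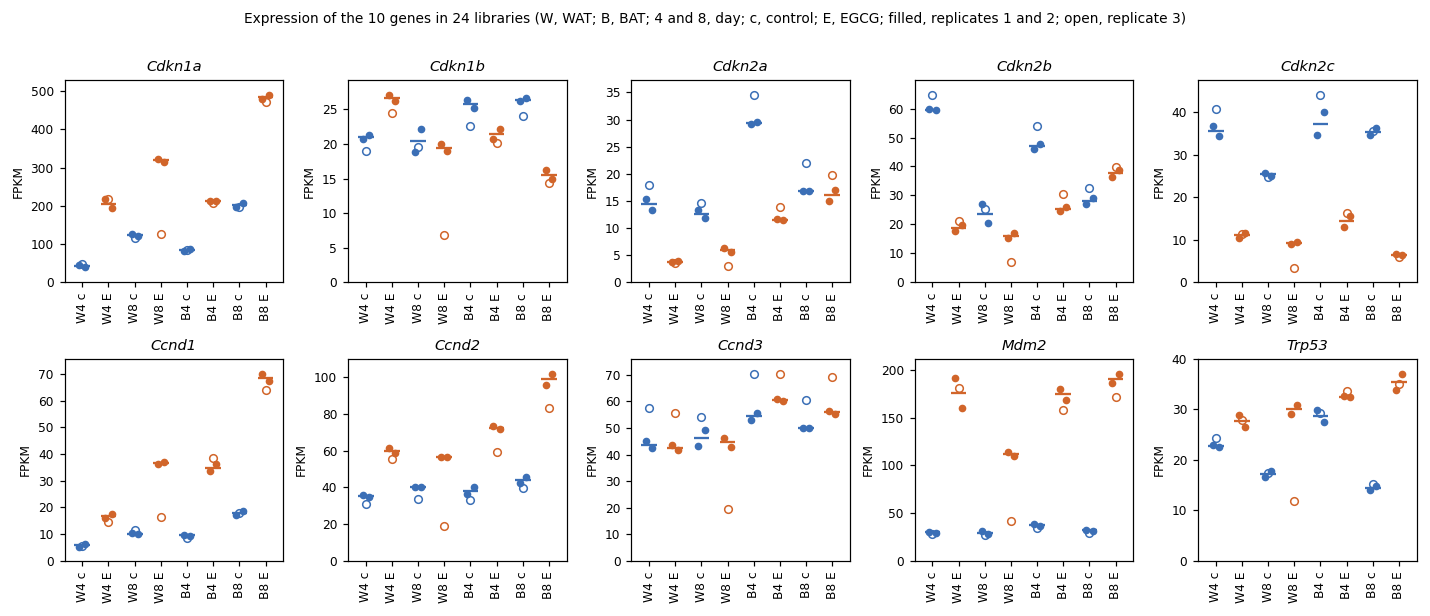
FPKM (vertical axes, linear and starting at 0) of each of the 10 genes in the 24 libraries, by group along the horizontal axis; filled points are replicates 1 and 2, open points replicate 3 as deposited, and bars the mean of replicates 1 and 2. Mdm2 and Cdkn1a stand higher in EGCG than in the matching control groups, Cdkn2c stands lower, and Ccnd3 lies within a narrow range; the open point of WAT day 8 with EGCG is low for every gene.

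Differences between groups were tested with limma on log2(FPKM + 1) of replicates 1 and 2, and are given as log2 change ± SE. A gene was called when its p-value, adjusted over all genes tested, was under 0.05. The first question was what EGCG changed in each depot on each day. In WAT cells on day 4, 9 of the 10 genes were called (6 higher and 3 lower), against a background of 53.7% over the genes tested (34.4% higher, 19.3% lower). On day 8 of WAT, 8 were called (5 higher, 3 lower), against 63.6% (44.7% higher, 18.9% lower). In BAT cells 9 were called on day 4 (5 higher, 4 lower), against 48.5% (27.9% and 20.6%). On day 8 of BAT 9 were called (7 higher, 2 lower), against 72.6% (46.5% and 26.1%). Mdm2, Cdkn1a, Trp53, Ccnd1 and Ccnd2 were called higher in all 4 of these contrasts, and Cdkn2c was called lower in all 4. Since 48.5% to 72.6% of all genes were called as well, the counts say little alone, and the sizes of change follow gene by gene.

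The median log2 change over all genes was 0.09, 0.17, 0.03 and 0.17 in WAT day 4, WAT day 8, BAT day 4 and BAT day 8. Median-ratio scaling moved it to -0.02, 0.01, 0.00 and 0.02, and higher genes among those called then went from 64.1% to 44.7% in WAT day 4, from 70.3% to 51.2% in WAT day 8 and from 64.0% to 51.8% in BAT day 8. Small changes near these shifts are marked below where scaling ends a call.

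**Figure D2:**
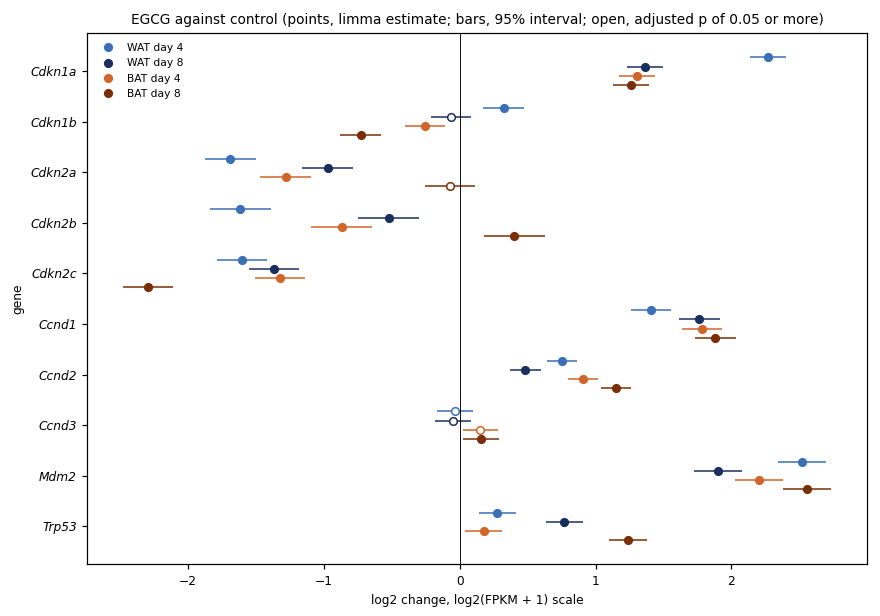
Log2 change with EGCG against control (horizontal axis, log2(FPKM + 1) scale) for each of the 10 genes in each depot and day; points are limma estimates, bars 95% intervals, and open points have an adjusted p of 0.05 or more. All 4 points of Mdm2, Cdkn1a, Ccnd1, Ccnd2 and Trp53 lie to the right of 0 and all 4 of Cdkn2c to the left, while those of Cdkn1b and Cdkn2b lie on both sides.

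Mdm2, the ligase that keeps p53 in check, rose with EGCG in each depot on each day. In WAT cells on day 4 its FPKM was 30.1, 29.5 and 27.9 in control replicates 1, 2 and 3 and 192, 160.4 and 181 with EGCG. On day 8 it was 31.2, 27.4 and 26.4 in control and 114, 109.8 and 41.4 with EGCG, the last value standing at 100.2 after scaling. No EGCG library overlapped a control library. In BAT cells it was 37.99, 36.1 and 34.5 in control and 180.4, 168 and 158 with EGCG on day 4, and 32.5, 30.7 and 28.9 in control and 186, 196 and 171 with EGCG on day 8. All 6 control libraries of BAT lay under 40 and all 6 with EGCG above 150. The mean was 5.91-fold higher in WAT day 4, with a log2 change of 2.52 ± 0.081 (adjusted p = 1.09e-09), and 3.82-fold higher in WAT day 8, with 1.90 ± 0.081 (adjusted p = 4.51e-09). In BAT it was 4.71-fold higher on day 4 (2.20 ± 0.081, adjusted p = 5.49e-09) and 6.04-fold higher on day 8 (2.56 ± 0.081, adjusted p = 1.41e-10).

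Trp53 itself moved less on day 4 than on day 8. Its FPKM in WAT day 4 was 22.97, 22.5 and 24.3 in control and 28.97, 26.5 and 27.9 with EGCG, and in BAT day 4 it was 29.9, 27.5 and 29.2 in control and 32.6, 32.4 and 33.7 with EGCG. These groups lay close together, without overlap in replicates 1 and 2. The log2 change was 0.28 ± 0.063 (adjusted p = 0.00304) in WAT and 0.18 ± 0.063 (adjusted p = 0.0368) in BAT, and both calls ended with median-ratio scaling, at 0.14 (adjusted p = 0.0811) and 0.13 (adjusted p = 0.106). The BAT day 4 call also ended without the control replicate 2 (0.12, adjusted p = 0.244), the EGCG replicate 1 (0.17, adjusted p = 0.123) or the EGCG replicate 2 (0.18, adjusted p = 0.103). On day 8 of WAT the controls held 16.5, 17.8 and 17.5 and the EGCG libraries 29.1, 30.9 and 11.9, the last being 28.7 after scaling. On day 8 of BAT the controls held 14.1, 14.8 and 15.1 and the EGCG libraries 33.8, 37.05 and 35.1. The groups stood well apart, with the day 8 controls lowest of the 8 groups and the day 8 EGCG groups near the EGCG groups of day 4. Trp53 was 1.75-fold higher with EGCG in WAT (0.77 ± 0.063, adjusted p = 7.27e-07) and 2.45-fold higher in BAT (1.24 ± 0.063, adjusted p = 6.25e-09).

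Cdkn1a, whose product p21 inhibits several cyclin and CDK complexes, rose with EGCG in all 4 contrasts. In WAT day 4 it stood at 43.9, 40.1 and 46.6 FPKM in control and 218, 194 and 218 with EGCG. In WAT day 8 it stood at 127, 121 and 116 in control and 323, 316 and 127 with EGCG, the last value being 306 after scaling. In replicates 1 and 2 the groups were far apart, and only the third EGCG library of day 8, as deposited, reached down to its controls. The BAT values were 82.6, 88.2 and 84.3 in control and 213, 212 and 207 with EGCG on day 4, and 197, 207 and 197 in control and 481, 489 and 473 with EGCG on day 8. The BAT groups did not overlap either. The change was largest in WAT day 4, 4.90-fold with a log2 change of 2.27 ± 0.060 (adjusted p = 4.32e-10). In the others it was 2.58-fold (WAT day 8, 1.36 ± 0.060, adjusted p = 5.95e-09), 2.49-fold (BAT day 4, 1.31 ± 0.060, adjusted p = 1.83e-08) and 2.40-fold (BAT day 8, 1.26 ± 0.060, adjusted p = 3.74e-09).

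Cdkn1b, which codes for p27, another Cip/Kip inhibitor, had no common direction. In WAT day 4 its FPKM was 20.8, 21.3 and 19.02 in control and 27.02, 26.2 and 24.4 with EGCG, a rise of 0.32 ± 0.068 (adjusted p = 0.0018). In BAT day 8 it was 26.2, 26.6 and 24.1 in control and 16.2, 14.9 and 14.3 with EGCG, 1.70-fold lower (-0.73 ± 0.068, adjusted p = 1.17e-06). Both pairs of groups were apart in every library. BAT day 4 gave a smaller decrease, from 25.8 ± 0.887 to 21.5 ± 1.07 (SD, n = 2; -0.25 ± 0.068, adjusted p = 0.00868), which was no longer called without control replicate 1 (-0.22, adjusted p = 0.0622) or EGCG replicate 1 (-0.21, adjusted p = 0.0762). WAT day 8 gave -0.07 ± 0.068 (adjusted p = 0.423) with overlapping groups, and became a call under median-ratio scaling (-0.26, adjusted p = 0.00723) and without control replicate 1 (-0.17, adjusted p = 0.0312).

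The INK4 genes went the other way from Cdkn1a in most contrasts. Cdkn2c, which codes for p18, was the only one of these 3 called lower in all 4. In WAT day 4 it fell from 36.8, 34.5 and 40.8 FPKM to 10.5, 11.7 and 11.3, and in WAT day 8 from 25.7, 25.1 and 24.7 to 9.08, 9.37 and 3.44 (8.32 for replicate 3 after scaling). In BAT it fell from 34.6, 40.1 and 44.03 to 13.1, 15.6 and 16.2 on day 4 and from 34.6, 36.4 and 35.5 to 6.56, 6.32 and 5.88 on day 8. Every EGCG library lay below every control library, across depots and days. The mean was 3.22-fold lower in WAT day 4 (-1.60 ± 0.084, adjusted p = 4.09e-08), 2.75-fold lower in WAT day 8 (-1.37 ± 0.084, adjusted p = 7.64e-08) and 2.60-fold lower in BAT day 4 (-1.32 ± 0.084, adjusted p = 1.91e-07). BAT day 8 showed the largest decrease of the 10 genes in any EGCG contrast, 5.51-fold (-2.29 ± 0.084, adjusted p = 4.48e-10).

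Cdkn2a and Cdkn2b are neighbours on chromosome 4, with 11640 bases between them. The values of Cdkn2a are sums over the transcripts of p16 and p19ARF, which gene-level counts cannot separate. Cdkn2a stood at 15.4, 13.4 and 17.9 in WAT day 4 control and 3.66, 3.88 and 3.58 with EGCG, and at 29.3, 29.6 and 34.5 in BAT day 4 control and 11.6, 11.5 and 13.8 with EGCG. The groups were wide apart, 3.82-fold lower with EGCG in WAT (-1.69 ± 0.085, adjusted p = 2.74e-08) and 2.55-fold lower in BAT (-1.28 ± 0.085, adjusted p = 2.54e-07). In WAT day 8 it went from 13.3, 11.8 and 14.6 to 6.33, 5.48 and 2.92 (7.06 after scaling), 2.13-fold lower (-0.97 ± 0.085, adjusted p = 1.23e-06). BAT day 8 was different, with 16.9, 16.8 and 21.9 in control and 14.98, 17.1 and 19.8 with EGCG. These groups overlapped, and the change of -0.07 ± 0.085 missed the threshold (adjusted p = 0.46, 95% interval -0.26 to 0.11). Scaling decided that contrast, since Cdkn2a was called lower after median-ratio scaling, at -0.25 (adjusted p = 0.0166).

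Cdkn2b, the gene of p15, fell on day 4, as Cdkn2a did, and changed direction in BAT on day 8. Its FPKM fell from 59.8, 59.4 and 64.6 to 17.9, 19.7 and 21.1 in WAT day 4 and from 46.1, 47.8 and 54.04 to 24.4, 26.04 and 30.4 in BAT day 4. The decreases were 3.17-fold (-1.61 ± 0.10, adjusted p = 1.78e-07) and 1.86-fold (-0.87 ± 0.10, adjusted p = 2.52e-05), with no overlap. In WAT day 8 it went from 26.95, 20.4 and 25.4 to 15.2, 16.9 and 6.89 (16.7 after scaling), 1.48-fold lower (-0.52 ± 0.10, adjusted p = 0.000777), a call kept at -0.33 without control replicate 1. In BAT day 8 the control libraries held 27.2, 29.2 and 32.5 and the EGCG libraries 36.3, 38.8 and 39.8. All 3 EGCG libraries were above the controls, 1.33-fold in the mean (0.40 ± 0.10, adjusted p = 0.00366), a call that ended after median-ratio scaling at 0.21 (adjusted p = 0.0817) and with replicate 3 in the fit at 0.16 (adjusted p = 0.0512, WAT day 8 EGCG replicate 3 left out). The fit that held every replicate 3 library kept the call.

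Among the D cyclins, Ccnd1 showed the largest increases. In WAT it went from 5.26, 6.13 and 5.66 to 15.9, 17.5 and 14.4 FPKM on day 4 and from 10.2, 9.92 and 11.5 to 36.1, 37.1 and 16.5 on day 8 (39.99 after scaling). In BAT it went from 9.53, 9.33 and 8.67 to 33.7, 36.2 and 38.5 on day 4 and from 17.2, 18.7 and 17.9 to 70.1, 67.3 and 64.1 on day 8. Control and EGCG libraries of the same depot and day never overlapped. Ccnd1 was 2.94-fold higher in WAT day 4 (1.41 ± 0.068, adjusted p = 2.09e-08), 3.63-fold in WAT day 8 (1.76 ± 0.068, adjusted p = 2.09e-09), 3.70-fold in BAT day 4 (1.78 ± 0.068, adjusted p = 6.57e-09) and 3.83-fold in BAT day 8 (1.88 ± 0.068, adjusted p = 4.19e-10). Reads where Ccnd1 overlaps Oraov1 on the other strand cannot be assigned with certainty, because the use of strand in counting is not stated, and the same holds for Ccnd2 with 9330179D12Rik and Ccnd3 with Bysl.

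Ccnd2 rose less than Ccnd1, between 1.41-fold in WAT day 8 and 2.25-fold in BAT day 8. In BAT day 8 its FPKM was 42.5, 45.5 and 39.3 in control and 96.00, 102 and 83.3 with EGCG (1.15 ± 0.051, adjusted p = 2.05e-09). The log2 changes elsewhere were 0.75 ± 0.051 (adjusted p = 3.11e-07) in WAT day 4, 0.48 ± 0.051 (adjusted p = 6.29e-06) in WAT day 8 and 0.91 ± 0.051 (adjusted p = 8.03e-08) in BAT day 4. Ccnd3 changed least. Its FPKM in BAT day 8 was 50.1, 50.03 and 60.7 in control and 56.5, 55.4 and 69.2 with EGCG, a change of 0.16 ± 0.060 (adjusted p = 0.0315) that turned to -0.03 after median-ratio scaling (adjusted p = 0.647) and missed the threshold without any 1 of the 4 libraries compared (0.14 to 0.17, adjusted p from 0.0707 to 0.122). The other Ccnd3 changes were -0.03 ± 0.060 (95% interval -0.17 to 0.10) in WAT day 4, -0.05 ± 0.060 (-0.18 to 0.08) in WAT day 8 and 0.15 ± 0.060 (0.02 to 0.28) in BAT day 4. Scaling decided those in WAT, which were called lower after median-ratio scaling, at -0.17 (adjusted p = 0.0281) on day 4 and -0.25 (adjusted p = 0.00358) on day 8.

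Replicate 3 had the direction of the called change for 9 of 9 genes in WAT day 4, BAT day 4 and BAT day 8, and for 6 of 8 in WAT day 8 as deposited or 8 of 8 after scaling. After scaling 8 of 9 kept it in BAT day 8, the exception being Ccnd3. In the contrasts of day it had the direction of 6 of 6 called changes in WAT control, 7 of 7 in BAT control, 4 of 6 in WAT with EGCG (6 after scaling) and 7 of 7 in BAT with EGCG, and in those of depot 8 of 8 and 6 of 6.

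Markers of other cell types moved in the same contrasts. The summed FPKM of 6 adipocyte markers fell with EGCG from 1939 to 2223 in control to 357 to 394 in WAT day 4, from 4732 to 5511 to 121 to 138 in WAT day 8, from 4871 to 5689.7 to 1134 to 1148 in BAT day 4, and from 9566 to 9675 to 283 to 288 in BAT day 8. The sum of 5 endothelial markers was 13.9 to 15.2 in control and 33.6 to 34.8 with EGCG in WAT day 4, 20.2 to 21.6 and 28.6 to 28.9 in WAT day 8, 11.03 to 13.2 and 35.1 to 37.9 in BAT day 4, and 16.01 to 16.4 and 33.0 to 34.0 in BAT day 8. None of the endothelial markers was at 0. Brown identity markers (5 genes) summed to 15.5 to 34.7 in WAT and 36.4 to 58.4 in BAT groups, and white identity markers (4 genes) to 14.8 to 34.9 and 3.39 to 10.03. In the WAT groups Ebf2 and Lhx8 made up nearly all of the brown sum, and the other 3 markers stayed under 1 FPKM. The sum of 5 fibroblast and progenitor markers was 8466 to 8764 in control and 6227 to 6867 with EGCG in WAT day 4, 7039.8 to 10036 and 3717 to 4043 in WAT day 8, 4971 to 5496 and 3584 to 3915 in BAT day 4, and 2646 to 2729 and 1826 to 1882 in BAT day 8. That of 5 macrophage markers was 13.9 to 14.3 and 18.1 to 18.8 in WAT day 4, 24.9 to 27.6 and 14.7 to 14.8 in WAT day 8, 19.9 to 20.53 and 27.6 to 28.2 in BAT day 4, and 18.8 to 20.2 and 12.2 to 12.4 in BAT day 8. Macrophage sums were higher with EGCG on day 4 and lower on day 8. Skeletal muscle markers (5 genes) summed to 67.5 to 68.1 and 111.6 to 114.8 in WAT day 4, 32.8 to 39.7 and 43.1 to 48.8 in WAT day 8, 17.0 to 25.00 and 19.9 to 24.9 in BAT day 4, and 47.1 to 47.8 and 37.4 to 38.3 in BAT day 8. In bulk RNA, fewer cells of a type and less RNA per cell cannot be told apart, and the part of these markers in the changes of the 10 genes was not tested.

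The second question was how the 10 genes moved from day 4 to day 8. In control cells of WAT 6 were called (3 higher, 3 lower), against 61.0% of all genes (27.7% higher, 33.2% lower). In control cells of BAT 7 were called (3 higher, 4 lower), against 69.2% (28.7% higher, 40.4% lower). Under EGCG 6 were called in WAT (3 higher, 3 lower), against 59.5% (31.8% and 27.7%), and 7 in BAT (5 higher, 2 lower), against 58.0% (29.7% and 28.2%). These counts were close to the shares of all genes, with the widest gap in BAT with EGCG. In BAT control higher genes among those called went from 41.5% to 53.3% with median-ratio scaling, which moved the median of all genes from -0.10 to 0.02.

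Cdkn1a and Ccnd1 were called higher on day 8 in all 4 of these contrasts. In control cells the mean FPKM of Cdkn1a went from 42.00 ± 2.65 to 124 ± 4.16 in WAT (SD, n = 2), 2.95-fold (1.54 ± 0.060, adjusted p = 3.77e-09), and from 85.4 ± 3.96 to 202 ± 7.26 in BAT, 2.36-fold (1.23 ± 0.060, adjusted p = 7.53e-09). Under EGCG it rose 1.55-fold in WAT (0.63 ± 0.060, adjusted p = 3.29e-06) and 2.28-fold in BAT (1.19 ± 0.060, adjusted p = 2.13e-08). Ccnd1 rose 1.77-fold in WAT control (0.73 ± 0.068, adjusted p = 2.64e-06) and 1.90-fold in BAT control (0.86 ± 0.068, adjusted p = 4.05e-07), and 2.19-fold and 1.97-fold under EGCG. Mdm2, another p53 target, had means between 29.3 ± 2.71 and 37.04 ± 1.34 FPKM in the 4 control groups. Its day difference was -0.03 ± 0.081 in WAT control (95% interval -0.20 to 0.15) and -0.22 ± 0.081 (adjusted p = 0.0286) in BAT control. The BAT call ended after median-ratio scaling (-0.07, adjusted p = 0.414), without the day 4 replicate 1 (-0.19, adjusted p = 0.138) and without the day 8 replicate 2 (-0.18, adjusted p = 0.143).

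Trp53 fell with day in control cells, with -0.39 ± 0.063 (adjusted p = 0.000226) in WAT and -0.94 ± 0.063 (adjusted p = 8.89e-08) in BAT, where its mean went from 28.7 ± 1.71 to 14.4 ± 0.476. Under EGCG its day difference was 0.11 ± 0.063 in WAT (95% interval -0.03 to 0.25) and 0.12 ± 0.063 in BAT (-0.02 to 0.26). Cdkn2b fell with day in control cells of WAT, from 59.6 ± 0.284 to 23.7 ± 4.62 (-1.31 ± 0.10, adjusted p = 5.72e-07), and of BAT, from 46.9 ± 1.22 to 28.2 ± 1.46 (-0.71 ± 0.10, adjusted p = 5.84e-05). Under EGCG it rose in BAT (0.56 ± 0.10, adjusted p = 0.000589) and gave -0.21 ± 0.10 in WAT (adjusted p = 0.0897). Cdkn2a gave -0.77 ± 0.085 (adjusted p = 6.59e-06) in BAT control, -0.18 ± 0.085 in WAT control (adjusted p = 0.0814), and rises under EGCG of 0.53 ± 0.085 (adjusted p = 0.0002) in WAT and 0.44 ± 0.085 (adjusted p = 0.000843) in BAT. The WAT control change was called without day 4 replicate 2 (-0.28, adjusted p = 0.0286) or day 8 replicate 1 (-0.27, adjusted p = 0.0358).

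Cdkn2c fell with day in WAT control (-0.47 ± 0.084, adjusted p = 0.000436) and in BAT with EGCG (-1.04 ± 0.084, adjusted p = 8.66e-07), from 13.1 and 15.6 to 6.56 and 6.32 FPKM in replicates 1 and 2. In WAT with EGCG the change was -0.24 ± 0.084 (adjusted p = 0.0285), a call lost without the day 4 replicate 2 (-0.17, adjusted p = 0.190) or either day 8 replicate (-0.22, adjusted p = 0.116, and -0.26, adjusted p = 0.0673). In BAT control its difference was -0.07 ± 0.084 (95% interval -0.25 to 0.12). Cdkn1b fell with day under EGCG, with -0.43 ± 0.068 (adjusted p = 0.000188) in WAT and -0.44 ± 0.068 (adjusted p = 0.000154) in BAT. Its control differences were -0.04 ± 0.068 in WAT (adjusted p = 0.624) and 0.03 ± 0.068 in BAT (adjusted p = 0.679), the latter called after median-ratio scaling (0.18, adjusted p = 0.0361), and the day differences of EGCG and control cells were themselves apart, by -0.39 ± 0.10 (adjusted p = 0.0058) and -0.48 ± 0.10 (adjusted p = 0.00131). Ccnd2 rose with day by 0.19 ± 0.051 (adjusted p = 0.00722) in WAT control, 0.20 ± 0.051 (adjusted p = 0.00452) in BAT control and 0.44 ± 0.051 (adjusted p = 1.68e-05) in BAT with EGCG, and gave -0.08 ± 0.051 in WAT with EGCG. Its control calls rested on 1 library each, since they ended without day 4 replicate 2 in WAT (0.16, adjusted p = 0.0560) and without day 4 replicate 1 in BAT (0.14, adjusted p = 0.0574). Ccnd3 was not called in any of the 4, with estimates from -0.12 to 0.08, though the WAT control change was called without day 8 replicate 1 (0.17, adjusted p = 0.0261). Over the same interval the summed adipocyte markers rose in control cells and fell in EGCG cells, by the values given above, and their part in these changes was not tested.

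**Figure D3:**
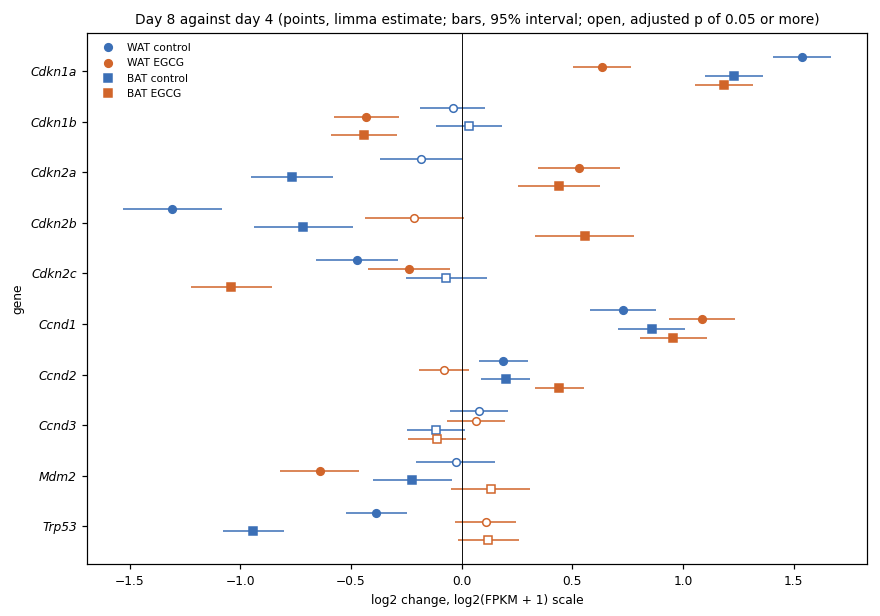
Log2 change from day 4 to day 8 (horizontal axis, log2(FPKM + 1) scale) of each of the 10 genes, in WAT (circles) and BAT (squares), control (blue) and EGCG (orange); points are limma estimates, bars 95% intervals, and open points have an adjusted p of 0.05 or more. Cdkn1a and Ccnd1 lie to the right of 0 in all 4 series, and Trp53 lies to the left in control cells and near 0 with EGCG.

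The third question was how control cells of the 2 depots differed. On day 4, 8 of the 10 genes were called (7 higher in BAT, 1 lower), against 55.8% of all genes (41.4% higher, 14.4% lower), and on day 8, 6 (5 higher, 1 lower), against 53.6% (31.6% and 22.0%). The day 4 count depends on the scaling. Median-ratio scaling moved the median of all genes from 0.15 to 0.02 and higher genes among those called from 74.3% to 51.5%, and left 4 of the 10 genes called, with Cdkn1b (0.12), Ccnd3 (0.15), Mdm2 (0.14) and Trp53 (0.16) no longer among them. The remaining 4 were Cdkn1a, Cdkn2a, Ccnd1 and Cdkn2b. Cdkn1a was 2.03-fold higher in BAT on day 4 (1.01 ± 0.060, adjusted p = 2.62e-07) and 1.63-fold on day 8 (0.70 ± 0.060, adjusted p = 2e-06). Ccnd1 was 1.66-fold (0.64 ± 0.068, adjusted p = 1.64e-05) and 1.78-fold higher (0.77 ± 0.068, adjusted p = 2.48e-06). Cdkn2a was 2.05-fold (0.99 ± 0.085, adjusted p = 3.38e-06) and 1.34-fold higher (0.40 ± 0.085, adjusted p = 0.00182).

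Cdkn2b was lower in BAT on day 4 (-0.34 ± 0.10, adjusted p = 0.0148), a call lost without WAT replicate 1 (-0.33, adjusted p = 0.0585), WAT replicate 2 (-0.34, adjusted p = 0.0548) or BAT replicate 1 (-0.31, adjusted p = 0.0722). On day 8 it gave 0.25 ± 0.10 (adjusted p = 0.0538), and without WAT replicate 1 it was called higher in BAT (0.45, adjusted p = 0.000768). Cdkn2c was 1.40-fold higher in BAT on day 8 (0.47 ± 0.084, adjusted p = 0.000611) and gave 0.06 ± 0.084 on day 4. Cdkn1b was higher in BAT on day 8 as well (0.36 ± 0.068, adjusted p = 0.000929), and Trp53 was lower (-0.23 ± 0.063, adjusted p = 0.0078), a call lost without BAT replicate 1 (-0.20, adjusted p = 0.0561) or WAT replicate 2 (-0.18, adjusted p = 0.0568). The Mdm2 call of day 4 ended without BAT replicate 1 (0.27, adjusted p = 0.0529). Ccnd2 was called higher in BAT without BAT replicate 1 on day 4 (0.18, adjusted p = 0.0248) and on day 8 (0.17, adjusted p = 0.0376), and Ccnd3 on day 8 without WAT replicate 2 (0.20, adjusted p = 0.0118). Adipocyte marker sums were also higher in BAT control, and their part in these differences was not tested.

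The last question was whether the EGCG effect differed between depots or days, tested as the difference of the log2 changes. Between depots 5 of the 10 genes were called on day 4, against 28.1% of all genes, and 7 on day 8, against 39.2%. Between days 8 were called in WAT, against 49.4%, and 7 in BAT, against 55.4%. The rise of Cdkn1a was smaller in BAT than in WAT on day 4, with a difference of -0.96 ± 0.085 (adjusted p = 1.49e-05), and smaller on day 8 than on day 4 in WAT, with -0.90 ± 0.085 (adjusted p = 8.38e-06). The effects on Cdkn2a and Cdkn2b went upward from day 4 to day 8, by 0.71 ± 0.12 (adjusted p = 0.000497) and 1.09 ± 0.14 (adjusted p = 9.44e-05) in WAT and by 1.21 ± 0.12 (adjusted p = 7.31e-06) and 1.27 ± 0.14 (adjusted p = 1.99e-05) in BAT. The fall of Cdkn2c deepened from day 4 to day 8 in BAT (-0.97 ± 0.12, adjusted p = 3.55e-05) and was deeper in BAT than in WAT on day 8 (-0.93 ± 0.12, adjusted p = 0.000109). The rise of Trp53 was larger on day 8 than on day 4 in WAT (0.49 ± 0.089, adjusted p = 0.000805) and in BAT (1.06 ± 0.089, adjusted p = 2.16e-06). Mdm2 rose less on day 8 than on day 4 in WAT (-0.62 ± 0.11, adjusted p = 0.00102), and its rise on day 8 was larger in BAT than in WAT (0.65 ± 0.11, adjusted p = 0.000944). The Ccnd1 effect did not pass the threshold between depots on day 8 (0.12 ± 0.10, 95% interval -0.09 to 0.33) or between days in BAT (0.10 ± 0.10, -0.11 to 0.31). Ccnd3 passed in none of these 4 tests. Between depots it was called on day 4 after median-ratio scaling (0.28, adjusted p = 0.0273). On day 8 it was called after quantile normalization (0.30, adjusted p = 0.0111).

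The order of the groups differed from gene to gene. Mean FPKM of Cdkn1a ran from WAT day 4 control, BAT day 4 control, WAT day 8 control and BAT day 8 control to WAT day 4, BAT day 4, WAT day 8 and BAT day 8 with EGCG, and only BAT day 8 control, WAT day 4 with EGCG and BAT day 4 with EGCG overlapped their neighbours. For Ccnd1 the order opened with WAT day 4, BAT day 4 and WAT day 8 control and closed with BAT day 4, WAT day 8 and BAT day 8 with EGCG, with overlap between WAT day 4 with EGCG and BAT day 8 control and between BAT day 4 and WAT day 8 with EGCG. For Mdm2 the 4 control groups came first and the 4 EGCG groups after them, without overlap between the 2 sets. For Cdkn2c the 4 EGCG groups came first and the 4 controls after them, the same division in reverse. Cdkn2a ran from WAT day 4 with EGCG to BAT day 4 control, and Cdkn2b from WAT day 8 with EGCG to WAT day 4 control. Trp53 ran from BAT day 8 control to BAT day 8 with EGCG, its lowest and highest groups sharing depot and day. For Cdkn1b and Ccnd3 most neighbours overlapped.

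Across the 16 libraries of replicates 1 and 2, which share group structure and adipogenic state, log2(FPKM + 1) of Ccnd1 followed Cdkn1a (Pearson r = 0.94) and Ccnd2 (0.93), and Mdm2 followed Ccnd2 (0.91) and ran opposite to Cdkn2c (-0.91). Cdkn2a and Cdkn2b had r = 0.76. Among 8394 other protein-coding genes with a mean FPKM of at least 5, the pattern most like that of Cdkn1a was that of Ephx1 (0.985), then Plekhb2 (0.982). The corresponding genes were Soat1 (0.983) and Eda2r (0.980) for Mdm2, Csad (0.988) and Apcdd1 (0.984) for Cdkn2c, Sox10 (0.992) and Stard13 (0.988) for Ccnd1, and Nup50 (0.976) and Crnkl1 (0.975) for Trp53. For the other genes they were Ing4 (0.931) and 6030408B16Rik (0.912) for Cdkn1b, Dolpp1 (0.950) and Pnpt1 (0.932) for Cdkn2a, Ankrd27 (0.907) and Mtmr4 (0.885) for Cdkn2b, Ei24 (0.968) and Frmd4a (0.963) for Ccnd2, and Smad6 (0.949) and Atoh8 (0.944) for Ccnd3. These correlations describe 16 libraries in 8 groups and were not tested.

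Other genes that p53 is known to activate moved with Cdkn1a and Mdm2 in the EGCG contrasts. Of 20 listed targets, without Cdkn1a and Mdm2, 18 were higher, 1 lower and 1 not called in WAT day 4, 19, 1 and 0 in WAT day 8, 18, 1 and 1 in BAT day 4, and 16, 1 and 3 in BAT day 8, against 53.7%, 63.6%, 48.5% and 72.6% of all genes called. Their median log2 change was 1.12, 1.22, 1.04 and 1.56, beside 0.09, 0.17, 0.03 and 0.17 over all genes. Pmaip1, which codes for the pro-apoptotic protein Noxa, rose most in 3 contrasts, with FPKM of 27.1 ± 1.72 against 4.12 ± 0.645 (EGCG against control, SD, n = 2) in WAT day 8 (2.46 ± 0.10, adjusted p = 3.18e-09), 25.7 ± 1.55 against 3.30 ± 0.0215 in BAT day 4 (2.63 ± 0.10, adjusted p = 6.44e-09) and 55.6 ± 2.24 against 3.58 ± 0.540 in BAT day 8 (3.63 ± 0.10, adjusted p = 5.16e-11). Eda2r, a receptor of the tumour necrosis factor family, rose most in WAT day 4, at 28.6 ± 0.665 against 6.58 ± 0.0203 (1.97 ± 0.092, adjusted p = 1.55e-08). Sesn1, a stress-induced regulator of mTORC1, was the lower one each time, with -0.62 ± 0.13 (adjusted p = 0.00223), -0.81 ± 0.13 (adjusted p = 0.000234), -0.64 ± 0.13 (adjusted p = 0.00206) and -1.20 ± 0.13 (adjusted p = 6.1e-06). With median-ratio scaling the counts in BAT day 8 became 15 higher and 4 lower, against 69.8% of all genes called. A p53 consensus match was found near 9 of the 20 (45.0%). From day 4 to day 8 in control cells the list was divided, with 6 higher and 9 lower in WAT (27.7% and 33.2% of all genes) and 9 higher and 8 lower in BAT (28.7% and 40.4%), from Plk2 (-2.13) to Phlda3 (1.04) in WAT and from Gdf15 (-1.17) to Btg2 (1.12) in BAT. The list was drawn up with earlier results of these data known, so its counts are a description.

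**Figure D4:**
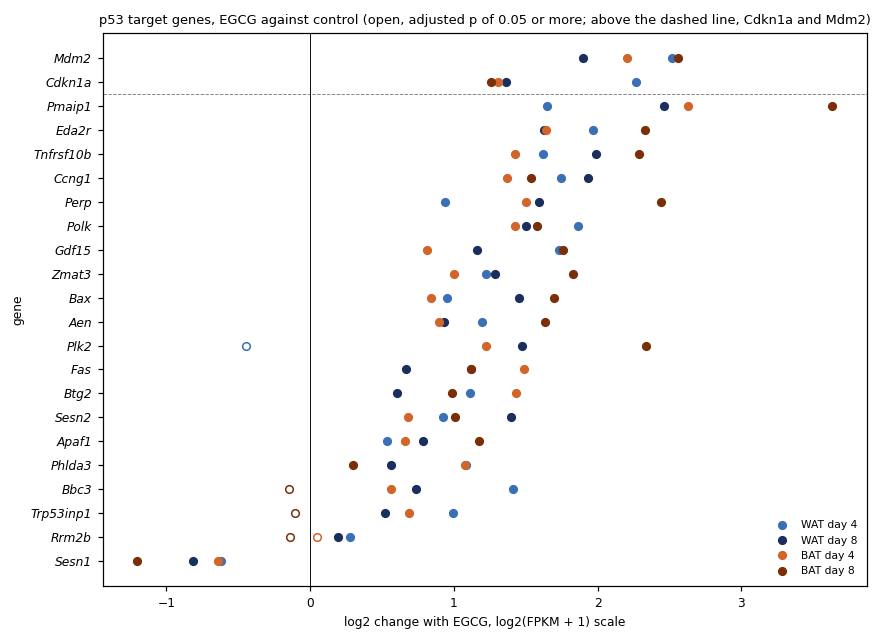
Log2 change with EGCG against control (horizontal axis, log2(FPKM + 1) scale) of Mdm2 and Cdkn1a, above the dashed line, and of 20 other p53 target genes; 1 point per depot and day, open where the adjusted p was 0.05 or more. Most points lie between 0 and 3, BAT day 8 reaches 3.63 for Pmaip1, and Sesn1 lies to the left of 0 in all 4.

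Regulators of p53 were followed in a list of 7. Of these (Mdm4, Usp7, Ppm1d, Atm, Atr, Chek1 and Chek2), 3 were higher and 0 lower in WAT day 4, 1 and 0 in WAT day 8, 0 and 1 in BAT day 4, and 4 and 1 in BAT day 8, against 53.7%, 63.6%, 48.5% and 72.6% of all genes called. Median-ratio scaling gave 2 and 0, 1 and 2, 0 and 2, and 4 and 2. The medians were 0.15, 0.07, 0.17 and 0.36 in that order. Ppm1d, a phosphatase that acts on p53, gave 1.14 ± 0.14 (adjusted p = 3e-05) in WAT day 4 and -0.56 ± 0.14 (adjusted p = 0.00281) in BAT day 8. Mdm4, a relative of Mdm2, fell in BAT day 4 (-0.39 ± 0.075, adjusted p = 0.00116). With day in control cells 4 of the 7 were lower in WAT and 7 in BAT, against 33.2% and 40.4% of all genes. None was higher (27.7% and 28.7% of all genes), and the checkpoint kinase gene Chek1 fell most (-0.94 and -1.53).

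The partners of the D cyclins and INK4 proteins were followed in a list of 12 genes for G1 kinases, E cyclins, pocket proteins and E2F factors. With EGCG 2 were higher and 3 lower in WAT day 4, 8 and 1 in WAT day 8, 5 and 1 in BAT day 4, and 6 and 2 in BAT day 8, against 53.7%, 63.6%, 48.5% and 72.6% of all genes called. Median-ratio scaling gave 1 and 5, 5 and 2, 4 and 1, and 6 and 5. The medians were 0.00, 0.27, 0.12 and 0.17 in that order. Cdk4, the kinase that D cyclins activate, rose on day 8, to 116 ± 1.36 against 55.6 ± 2.37 FPKM in WAT (1.05 ± 0.040, adjusted p = 1.72e-09) and 123 ± 0.820 against 46.4 ± 1.30 in BAT (1.39 ± 0.040, adjusted p = 6.78e-11). E2f2 was the gene lowered most in all 4 contrasts (-0.87, -0.60, -1.04 and -1.16), at a low level, the highest group mean being 3.27 FPKM in BAT day 4 control. Rb1 rose in WAT day 4 (0.49 ± 0.056, adjusted p = 2.11e-05) and E2f1 in BAT day 4 (0.67 ± 0.065, adjusted p = 5.39e-06). In control cells 8 of the 12 fell with day in WAT and 9 in BAT (33.2% and 40.4% of all genes), with 2 higher in each (27.7% and 28.7%). Ccne2 (-1.05, WAT) and Ccne1 (-1.41, BAT) fell most, and Rb1 (0.53 and 0.91) rose most.

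The other CDK inhibitors in the tables were Cdkn1c (p57) and Cdkn2d (p19INK4D), with median changes of -0.42, -0.26, -0.19 and -0.99 in WAT day 4, WAT day 8, BAT day 4 and BAT day 8. Cdkn1c fell with EGCG in all 4 contrasts, with -1.72 ± 0.15 (adjusted p = 2.52e-06), -1.06 ± 0.15 (adjusted p = 7.21e-05), -0.87 ± 0.15 (adjusted p = 0.000505) and -1.44 ± 0.15 (adjusted p = 3.44e-06). Cdkn2d rose in WAT day 4 (0.88 ± 0.20, adjusted p = 0.00325). In WAT day 8 it gave 0.53 ± 0.20 (adjusted p = 0.0379), a call that ended after median-ratio scaling (0.38, adjusted p = 0.128), with voom on the recovered reads (0.52, adjusted p = 0.121) and without EGCG replicate 1 (0.33, adjusted p = 0.268) or either control replicate (0.55, adjusted p = 0.0876, and 0.52, adjusted p = 0.110). In BAT day 8 it gave -0.54 ± 0.20 (adjusted p = 0.0299), which was lost without EGCG replicate 2 (-0.17, adjusted p = 0.390) or either control replicate (-0.49, adjusted p = 0.119, and -0.60, adjusted p = 0.0624). In BAT day 4 it was not called (0.50 ± 0.20, adjusted p = 0.0621), and was with voom (adjusted p = 0.0398) or the replicate block (adjusted p = 0.0389). Cdkn1c fell with day in WAT control (-0.95). In BAT control it gave 0.39 ± 0.15 (adjusted p = 0.0365), a call lost without day 4 replicate 1 (0.18, adjusted p = 0.337) or either day 8 replicate (0.32, adjusted p = 0.163, and 0.46, adjusted p = 0.0571).

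The 5 listed regulators of p27 and of the INK4 locus were the p27 ligase genes Skp2 and Cks1b and the Polycomb genes Bmi1, Cbx7 and Ezh2. With EGCG 1 was higher and 2 lower in WAT day 4, 2 and 0 in WAT day 8, 0 and 1 in BAT day 4, and 2 and 1 in BAT day 8, against 53.7%, 63.6%, 48.5% and 72.6% of all genes called. Median-ratio scaling gave 0 and 3, 0 and 1, 0 and 2, and 2 and 1, so the higher calls in WAT depend on the scaling. The medians were -0.16, -0.02, -0.10 and 0.06 in that order. Cks1b fell in WAT day 4 (-0.67 ± 0.069, adjusted p = 8.77e-06), and Skp2 rose in BAT day 8 (0.49 ± 0.10, adjusted p = 0.000651). In BAT day 4 neither was called (Cks1b -0.16, adjusted p = 0.0817, and Skp2 -0.05, adjusted p = 0.724). Cbx7 fell in BAT day 8 (-0.82 ± 0.19, adjusted p = 0.00208). In WAT day 4 it gave 0.50 ± 0.19 (adjusted p = 0.0443), and that call ended after median-ratio scaling (adjusted p = 0.0732), quantile normalization (adjusted p = 0.131), voom (adjusted p = 0.0769) and the replicate block (adjusted p = 0.0509), and without EGCG replicate 1 (0.23, adjusted p = 0.379) or either control replicate (0.51, adjusted p = 0.114, and 0.48, adjusted p = 0.131). In WAT day 8 the changes of Bmi1 (0.18) and Ezh2 (0.21) became -0.01 (adjusted p = 0.934) and 0.05 (adjusted p = 0.612) with median-ratio scaling. The Bmi1 change of -0.20 in BAT day 4 was not called without EGCG replicate 1 (-0.17, adjusted p = 0.117) or control replicate 1 (-0.15, adjusted p = 0.144). With day in control cells 1 was higher and 3 lower in WAT (27.7% and 33.2% of all genes), and 1 and 4 in BAT (28.7% and 40.4%). Cbx7 was the higher one (0.90 and 1.38), and Ezh2 (-1.01, WAT) and Cks1b (-1.39, BAT) fell most.

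Genes of S phase lie downstream of these regulators. Of 15, 0 were higher and 7 lower with EGCG in WAT day 4, 9 and 0 in WAT day 8, 10 and 1 in BAT day 4, and 12 and 1 in BAT day 8, against 53.7%, 63.6%, 48.5% and 72.6% of all genes called. The medians were -0.13, 0.20, 0.22 and 0.48 in that order. Median-ratio scaling gave 0 and 10, 4 and 1, 9 and 1, and 10 and 1. Rrm2, a subunit of ribonucleotide reductase, rose most, with 1.52 ± 0.13 (adjusted p = 1.17e-06) in WAT day 8, 0.97 ± 0.13 (adjusted p = 8.18e-05) in BAT day 4 and 1.63 ± 0.13 (adjusted p = 3.37e-07) in BAT day 8, and the helicase subunit gene Mcm6 fell most in WAT day 4 (-0.62 ± 0.057, adjusted p = 3.31e-06). From day 4 to day 8 all 15 fell in WAT control, BAT control, WAT with EGCG and BAT with EGCG, with median log2 changes of -1.40, -1.87, -0.94 and -1.56. Of all genes 33.2%, 40.4%, 27.7% and 28.2% were called lower there. In the same 4 contrasts Cdkn1a and Ccnd1 were called higher.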

How the data were processed

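RNA sequencing was available for 24 libraries, grouped by the labels. The authors deposited FPKM values in 2 tables, replicates 1 and 2 in the first and replicate 3 in the second. The submitters' processing notes name FastQC 0.11.9, HISAT2 2.2.0, HTSeq 0.11 and mm9. The use of strand in counting is not given in the sources used here. Whole reads behind each value could be recovered in 100.0% of values (tolerance 0.01). Gene identifiers were matched to GENCODE vM1 (NCBIM37), 37310 of 37310, and gene symbols, coordinates and sequences come from that annotation and build.

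Genes with an FPKM of 1 or more in 2 or more libraries of replicates 1 and 2 were tested. A linear model of log2(FPKM + 1) with a mean for each group was fitted in limma 3.58.1 (R 4.3.3; lmFit, contrasts.fit, eBayes with trend), with 8 residual degrees of freedom over all groups. Tests were two-sided, with Benjamini-Hochberg adjustment over the 14095 genes tested in each of 14 contrasts. The log2 changes understate changes of genes with low values. The fitting code was tested on simulated data. Replicate 3, scaled in another table with 1 library per group, gave directions, and entered only the alternative fits over both tables. Replicates of a group differed by more than read sampling (median squared difference 1.62 to 3.90 in units of sampling error, against 0.455 for sampling alone).

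The 10 genes were named in full. For each, the 2 genes with the highest Pearson correlation were named, and from 6 pathway lists the called genes with the highest and the lowest change, in the EGCG contrasts and the day contrasts of control cells. A further list is not reported here. Genes, lists and tests were chosen with earlier results of these data known. Alternatives were a pseudocount of 0.1, no filter, median-ratio scaling, quantile normalization, voom on recovered reads, a replicate block, a fit over both tables, and leaving out 1 library.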

Additional observations from a re-analysis of the deposited data

Results flagged for a closer look

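The results flagged here are differences between the EGCG effects of 2 groups, tested in limma as the difference of the log2 changes, with an adjusted p under 0.05. They are given as values, with no explanation. A positive value means that the EGCG effect was higher in BAT than in WAT, or higher on day 8 than on day 4.

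Between depots on day 4 the EGCG effect in BAT minus that in WAT was -0.96 for Cdkn1a, -0.58 for Cdkn1b, 0.41 for Cdkn2a, 0.75 for Cdkn2b and 0.38 for Ccnd1. Cdkn2a missed the threshold without a filter on low values (adjusted p = 0.0546) and without any 1 of 6 libraries, at 0.31 to 0.41 (adjusted p from 0.0593 to 0.0955); these were both BAT control, both BAT EGCG, WAT control replicate 1 and WAT EGCG replicate 1. Ccnd1 missed it without WAT control replicate 2 (0.28, adjusted p = 0.0519), WAT EGCG replicate 1 (0.31, adjusted p = 0.0573) or BAT EGCG replicate 2 (0.33, adjusted p = 0.0553). Mdm2 was not called between depots on day 4 (-0.31, adjusted p = 0.0621), and was called without WAT EGCG replicate 2 (-0.44, adjusted p = 0.0105). Cdkn2c was not called there either (0.28, adjusted p = 0.101), and was without BAT control replicate 2 (0.38, adjusted p = 0.0437) or BAT EGCG replicate 1 (0.40, adjusted p = 0.0330).

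Between depots on day 8 the difference was -0.66 for Cdkn1b, 0.90 for Cdkn2a, 0.92 for Cdkn2b, -0.93 for Cdkn2c, 0.67 for Ccnd2, 0.65 for Mdm2 and 0.47 for Trp53. Leaving out any 1 library ended none of these calls. Ccnd3 was not called (0.21, adjusted p = 0.0714), and was without WAT control replicate 1 (0.30, adjusted p = 0.00903).

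Between days in WAT the effect on day 8 minus that on day 4 was -0.90 for Cdkn1a, -0.39 for Cdkn1b, 0.71 for Cdkn2a, 1.09 for Cdkn2b, 0.36 for Ccnd1, -0.27 for Ccnd2, -0.62 for Mdm2 and 0.49 for Trp53. Leaving out any 1 library ended none of these 8 calls either. The Ccnd1 call ended in a voom fit on the recovered reads (0.23, adjusted p = 0.107).

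Between days in BAT it was -0.48 for Cdkn1b, 1.21 for Cdkn2a, 1.27 for Cdkn2b, -0.97 for Cdkn2c, 0.24 for Ccnd2, 0.35 for Mdm2 and 1.06 for Trp53. The Ccnd2 call ended after median-ratio scaling (0.10, adjusted p = 0.282) and without control day 4 replicate 2 (0.18, adjusted p = 0.0596), control day 8 replicate 1 (0.20, adjusted p = 0.0568) or EGCG day 8 replicate 2 (0.20, adjusted p = 0.0607). The Mdm2 call ended after median-ratio scaling (0.21, adjusted p = 0.132) and without control day 4 replicate 1 (0.32, adjusted p = 0.0689), control day 8 replicate 2 (0.31, adjusted p = 0.0696), EGCG day 4 replicate 2 (0.30, adjusted p = 0.0767) or EGCG day 8 replicate 2 (0.32, adjusted p = 0.0714).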

How the results depend on the processing

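Each of the 140 log2 changes (10 genes in 14 contrasts) was recomputed under each alternative. A pseudocount of 0.1 left all 140 on the same side of the threshold. The others left 135 (no filter on low values), 129 (quantile normalization), 121 (median-ratio scaling), 121 (voom on recovered reads), 122 (both tables) and 120 (both tables without WAT day 8 EGCG replicate 3) as they were, and leaving out 1 library kept 670 of 720, with 38 losing and 12 gaining a call. The change of Ccnd3 with EGCG in BAT day 8 reversed, to -0.0318 with median-ratio scaling, -0.0325 with voom and -0.0362 in both fits over both tables. Of the 10 genes, those called between depots in day 4 controls went from 8 to 4 (median-ratio) and 5 (voom), and those of all genes from 55.8% to 47.9% and 48.4%. Those called for a depot difference of the EGCG effect on day 4 went from 5 to 8 (median-ratio), 8 (voom) and 9 (both fits over both tables), while of all 14095 genes 3959 were called, and under these alternatives 3777, 3799, and 5054 and 5015. Of the 10 genes, 3 to 6 were called when 1 library was left out, with 3 without WAT day 4 EGCG replicate 1 or BAT day 4 EGCG replicate 2. Each of these fits left 1 library in a group, and in each the share of all genes called was lower than the 28.1% of the main fit. The causes were not tested.

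Same-numbered libraries showed no shared deviation: the deviations of same-numbered libraries of 2 groups correlated between -0.08 and 0.08 in 28 pairs of groups. How the libraries were prepared cannot be told from these values. The replicate block changed 1 of the 140 calls, that of Mdm2 for the depot difference of the EGCG effect on day 4 (-0.31, adjusted p = 0.0291 with the block), and left every other call. Read depth was high for all 10 genes (at least 150 reads in each library tested), and the precision is limited by the 2 libraries of each group.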
